A study of Mus musculus with 10 samples.

Results

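The 5 perilipins (Plin1 to Plin5) and 4 genes of lipid droplet assembly and fusion (Cidec, Fitm1, Fitm2 and Bscl2) were followed in mRNA-seq of visceral white adipose tissue (WAT) from wild-type (Mof+/+) and Mof heterozygous (Mof+/-) mice. These 9 genes of the 47937 counted were taken by symbol, after their Ensembl identifiers had been matched to gene names without the version number. All 9 were matched.

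A lipid droplet is a core of triglyceride and sterol ester under a single layer of phospholipid. Perilipins sit on that layer and control the access of lipases, Fitm1 and Fitm2 and seipin (the product of Bscl2) act at the endoplasmic reticulum where droplets form, and Cidec passes lipid from smaller to larger droplets. White adipocytes are known for a single large droplet coated by Plin1, while Plin2 coats droplets in many cell types, macrophages included, and Plin5 and Fitm1 are best known from oxidative tissues such as muscle.

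The study asked how loss of 1 allele of Mof (Kat8), which encodes a histone H4K16 acetyltransferase, acts on WAT before and under nutrient stress. The 10 libraries of C57BL/6 mice formed 4 groups. On standard diet (SD), 3 Mof+/+ and 3 Mof+/- mice were 8 weeks old, and on high-fat diet (HFD), 2 Mof+/+ and 2 Mof+/- mice were 27 weeks old after 20 weeks of HFD by the sample descriptions, so that diet and age cannot be told apart. The study's text gives a longer time on HFD than these descriptions, and whether SD and HFD mice were processed together was not given in the sources used here. The heterozygous allele was not limited to adipocytes, and bulk WAT holds several cell types, in which fewer cells of a type and less RNA per cell cannot be told apart.

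Several libraries stood apart. The total count on genes ran from 5531786 (HFD Mof+/- 2) to 17171947 in 9 libraries and was 1044355 in HFD Mof+/- 1. In HFD Mof+/- 1 mitochondrial genes took 26.9% of counts, and 16 skeletal muscle markers summed to 76808 CPM (each gene's counts scaled to the library's total on genes). That sum was 1857 CPM in HFD Mof+/- 2 and 52.0 to 136 CPM in the other 8 libraries. All 3 SD Mof+/- libraries had counts of Xist and none of 4 Y-linked genes, and the other 7 had the reverse, although the study's methods name male mice. Hence sex cannot be told apart from genotype on SD, from diet within Mof+/-, or from the difference between these effects, whereas genotype on HFD and diet within Mof+/+ were compared within 1 sex pattern. The column headings of the third SD libraries name the opposite genotype, and grouping followed the sample labels, as did the sex-linked genes. All 12 adipocyte markers had counts in every group. Kat8 itself was at 20.4 to 21.5 CPM in SD Mof+/+, 11.5 to 18.8 in SD Mof+/-, 18.1 and 19.2 in HFD Mof+/+, and 20.1 and 10.5 in HFD Mof+/- 1 and 2. Every SD Mof+/- library lay below every SD Mof+/+ library in CPM, beside 40.3% of all genes tested without overlap. Kat8 did not pass the test between genotypes on SD (log2 fold change -0.22, SE 0.35, edgeR adjusted p = 0.736) or on HFD (log2 fold change 0.06, SE 0.82, adjusted p = 0.987). A non-significant test with these SEs does not show that Kat8 was unchanged. The Kat8 counts cover the whole gene, and the position of the deletion was not given in the sources used here.

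The members spanned a wide range of levels. Per kb of annotated exon, the scale on which levels of different genes are ranked here, Cidec led in each of the 10 libraries, with a mean of 1001 CPM per kb in SD Mof+/+ (SD 242, n = 3). Plin4 and Plin1, the perilipins of the white adipocyte droplet, came next in that group at 374 (SD 108) and 353 (SD 68.1) CPM per kb, and their ranges overlapped. Plin2 followed at 82.3 (SD 21.5), Bscl2 at 58.0 (SD 5.28) and Fitm2 at 46.3 (SD 9.49), with overlap between neighbours among these 3. Plin3, a perilipin found in the cytosol of most cells, stood at 21.8 (SD 1.41) CPM per kb, Plin5 at 6.48 (SD 1.23) and Fitm1 at 0.645 (SD 0.635), without overlap between neighbours. In HFD Mof+/+ the order of the leading genes differed, with Plin2 in the second place at 396 CPM per kb (SD 99.6, n = 2), above Plin4 at 207 (SD 33.7) and Plin1 at 191 (SD 64.8) in both libraries. In HFD Mof+/- every neighbour below Cidec overlapped.

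**Figure D1:**
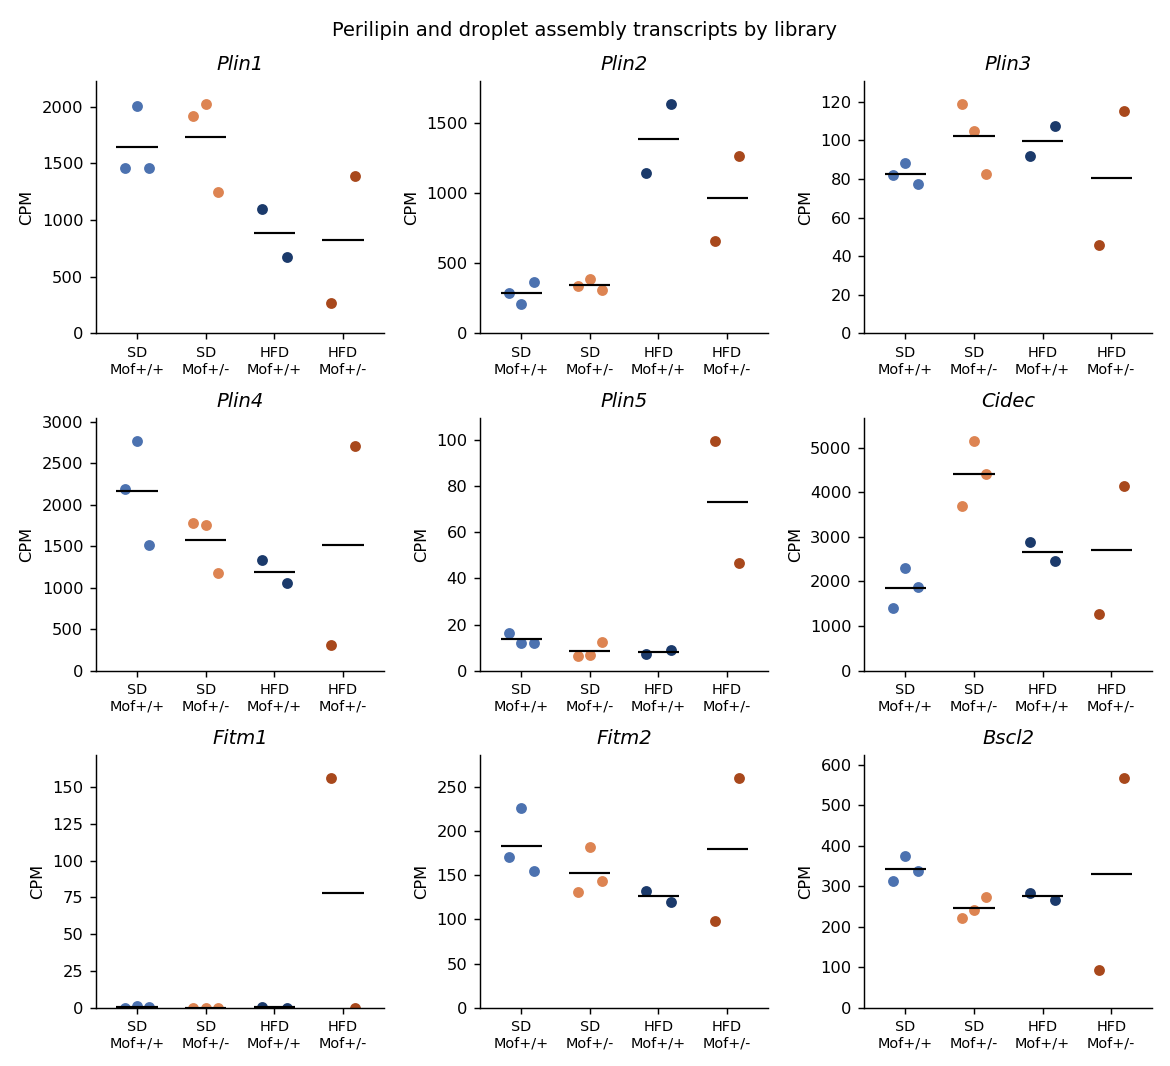
CPM of the 9 members (vertical axes, linear, from 0) in each library of the 4 groups (points, replicates 1 to 3 from left to right), with the group mean as a line. Cidec is higher in every SD Mof+/- library than in every SD Mof+/+ library, Plin2 is higher in the HFD libraries than in the SD libraries, Plin5 is above 16.5 CPM only in HFD Mof+/-, and Fitm1 is above 1.23 CPM only in HFD Mof+/- 1.

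All 9 members are protein-coding and lie on 7 chromosomes of GRCm38. Plin4 (chr17:56100591-56109803), Plin5 (chr17:56111601-56117596) and Plin3 (chr17:56277476-56292873) neighbour each other on the minus strand of chromosome 17. Plin1 lies at chr7:79720218-79732903, Plin2 at chr4:86648386-86670060, Cidec at chr6:113424634-113435760 and Fitm2 at chr2:163466379-163472629, all on the minus strand, and Fitm1 at chr14:55575617-55576954 and Bscl2 at chr19:8837467-8848683, both on the plus strand. The library kit does not mark the strand. Exons of 4 members overlap a gene on the opposite strand, by 398 bases (6.75% of exon bases) for Bscl2 with Gng3, 227 bases (5.72%) for Fitm2 with 2310001K24Rik, 109 bases (11.2%) for Fitm1 with Gm15932 and 17 bases (0.294%) for Plin4 with Hdgfl2. In the 10 libraries together the overlapping genes had 236 counts beside 27853 of Bscl2, 27 beside 14805 of Fitm2, 0 beside 187 of Fitm1 and 2471 beside 158863 of Plin4.

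Sequence before the start site is shown for Plin2, Cidec and Plin5, the members called by edgeR and the one higher in both HFD Mof+/- libraries (RefSeq, GRCm38.p6, minus strand, read 5′ to 3′ toward the gene, bases inside the annotated gene left out). Capitals mark AGGTCA on either strand, the half-site that many nuclear receptors recognise, PPARγ with its partner RXR among them.
Plin2 (chr4:86670061-86670309): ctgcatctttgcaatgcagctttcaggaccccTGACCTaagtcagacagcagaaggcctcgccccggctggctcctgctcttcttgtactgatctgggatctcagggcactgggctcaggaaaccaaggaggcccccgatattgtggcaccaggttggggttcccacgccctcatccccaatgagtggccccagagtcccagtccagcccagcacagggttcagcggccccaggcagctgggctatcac
Cidec (chr6:113435761-113436010): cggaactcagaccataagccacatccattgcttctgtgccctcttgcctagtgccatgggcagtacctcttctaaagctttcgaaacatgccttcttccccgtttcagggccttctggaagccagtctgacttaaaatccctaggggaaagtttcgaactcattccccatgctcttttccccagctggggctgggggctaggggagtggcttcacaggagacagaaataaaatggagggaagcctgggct
Plin5 (chr17:56117597-56117798): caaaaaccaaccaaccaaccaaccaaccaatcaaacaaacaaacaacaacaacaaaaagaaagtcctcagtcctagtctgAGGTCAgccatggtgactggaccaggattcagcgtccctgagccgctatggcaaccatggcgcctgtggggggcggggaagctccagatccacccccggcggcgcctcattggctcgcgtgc
In the 250 bases before the RefSeq start, a copy began 218 bases before the Plin2 start and 170 bases before the Plin5 start, and there was none before the Cidec start shown. Of 13 RefSeq starts of the 9 members, 3 held the half-site, those of Plin2, Plin5 and Bscl2, beside 14.0% of all 32851 promoters. None held 2 copies in the same direction with 1 base between, the arrangement known for PPARγ and RXR (0.0335% of all promoters), and none held CACGTG, the E-box of basic helix-loop-helix factors (6.02%). These matches are letters in a window and say nothing of binding.

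Cidec was the member that differed between genotypes on SD. It was at 1404, 2303 and 1867 CPM in SD Mof+/+ 1 to 3 and at 3689.6, 5151 and 4420.3 CPM in SD Mof+/- 1 to 3. Every Mof+/- library was above every Mof+/+ library, with group means of 4420.4 (SD 731) and 1858 (SD 449) CPM, 2.38-fold apart. After TMM normalization, which scales libraries on the bulk of their genes, the log2 fold change was 1.61 (SE 0.29, edgeR quasi-likelihood test with Benjamini-Hochberg adjustment over 13864 genes, adjusted p = 0.0314). Cidec was the 1 member called of 8 tested, beside 5.24% of all genes, and 3 members and 3559 of all genes had an unadjusted p under 0.05. TMM placed the SD Mof+/- libraries higher than library totals did, by 0.35 on the log2 scale, and with totals alone the Cidec log2 fold change was 1.25 (adjusted p = 0.0448).

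Of 17 alternatives, Cidec passed the threshold in 9 and lost the call in the others. With all 10 libraries in one fit the log2 fold change was 1.62 (edgeR adjusted p = 0.0745), and without the third SD libraries it was 1.56 (adjusted p = 0.0523). With a correction for exon length the log2 fold change was 1.07 (adjusted p = 0.0650), and without SD Mof+/+ 1, 2 or 3 or SD Mof+/- 2 it was 1.45 to 1.81 with adjusted p from 0.0836 to 0.161. Grouped by the column headings instead of the labels it was 0.38 (adjusted p = 0.9998). Over 14817 genes, which are not independent replicates, the deviation of a gene's log2 CPM from its mean over the 10 libraries had a rank correlation with exon length of 0.329 to 0.390 in SD Mof+/+ and -0.383 to 0.128 in SD Mof+/-, and Cidec has 1856 exon bases against 4649 for Plin1.

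Ratios inside a library do not depend on scaling. They are given in CPM, not per kb, and the length trend just described, which differs between libraries, is still in them. With the length correction the SD genotype difference was 1.07 for Cidec and 0.58 for Plin1 on the log2 scale, against 1.61 and 0.42 without it. Cidec stood at 0.962, 1.15 and 1.28 times Plin1 in SD Mof+/+ 1 to 3 and at 1.92, 2.55 and 3.55 times in SD Mof+/- 1 to 3. It was 2.63 and 3.64 times Plin1 in HFD Mof+/+ and 4.76 and 2.98 times in HFD Mof+/-, so that the 3 SD Mof+/+ libraries were the lowest of the 10. The 12 adipocyte markers together summed to 44875 to 58724 CPM in SD Mof+/+ and to 72631 to 87535 CPM in SD Mof+/-. Per 1000 CPM of these markers, Cidec was at 30.1, 39.2 and 41.6 CPM in SD Mof+/+ and at 50.8, 60.7 and 50.5 CPM in SD Mof+/-, again without overlap. On this scale Plin1 was lower in Mof+/-, at 26.4, 23.9 and 14.2 CPM against 31.3, 34.2 and 32.5 CPM in Mof+/+. So was Plin4, at 24.5, 20.7 and 13.5 against 47.1, 47.2 and 33.9 CPM, both without overlap. The share of all genes without overlap on these ratio scales was not computed. Markers of other cell types moved with genotype too. The sum of 8 endothelial markers was 1256 to 2959 CPM in SD Mof+/+ and 311 to 433 CPM in SD Mof+/-, with 5 called lower (median log2 fold change -1.98), and that of 8 mesothelial markers was 23.8 to 67.8 and 170 to 392 CPM, with 4 called higher (median 3.44). Of 16 macrophage markers 10 were above 0 and 6 below, with 4 called higher (median 0.39). Their sum was 6578 to 7141 CPM in SD Mof+/+ and 12445 to 25090 CPM in SD Mof+/-. Of 12 adipocyte markers 10 were above 0 and 3 were called higher (median 0.60). Of 6 myelin and glial markers tested 2 were called lower (median -3.27). All 7 lymphocyte markers tested were below 0 and 0 were called (median -2.89), with sums that overlapped. Their part in the Cidec difference was not tested.

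The remaining members did not pass the test between genotypes on SD. Plin1 was at 1459, 2007 and 1458 CPM in Mof+/+ and 1918, 2024 and 1246 CPM in Mof+/-, with a log2 fold change of 0.42 (SE 0.27). Plin4, which coats small new droplets in adipocytes, was at 2195, 2769 and 1521 CPM and 1778, 1758 and 1182 CPM, with a log2 fold change of -0.11 (SE 0.30). Both genes overlapped between genotypes in CPM, though not per 1000 CPM of adipocyte markers, a sum that was itself higher in Mof+/-. Relative to Plin1 in the same library Plin4 stood at 1.04 to 1.504 in Mof+/+ and at 0.869 to 0.949 in Mof+/-, without overlap. With the length correction the log2 fold changes of Plin1 and Plin4 were 0.58 and 0.18, both above 0. Plin2 had a log2 fold change of 0.62 (SE 0.26, adjusted p = 0.171) and Plin3 one of 0.66 (SE 0.22, adjusted p = 0.106, and 0.0342 by DESeq2, which called 2209 genes). On library totals without TMM, Plin1 was at 0.08, Plin4 at -0.46, Plin2 at 0.26 and Plin3 at 0.31.

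Bscl2, which encodes seipin, was at 314, 375 and 337 CPM in SD Mof+/+ and at 222, 240.0 and 273 CPM in SD Mof+/-. The groups did not overlap in CPM, yet the log2 fold change after TMM was -0.11 (SE 0.23, adjusted p = 0.798). It was -0.48 on library totals and 0.23 with the length correction. Fitm2 was at 171, 226 and 154 CPM and at 131, 183 and 144 CPM, and its log2 fold change of 0.09 (SE 0.26) turned to -0.27 on library totals. Plin5 was at 11.9 to 16.5 CPM in Mof+/+ and 6.52 to 12.2 CPM in Mof+/- (log2 fold change -0.29, SE 0.49). Thus 2 members, Cidec and Bscl2, did not overlap between genotypes in CPM, beside 40.3% of all genes tested. The 8 members had a median log2 fold change of 0.25 after TMM, with 5 above 0, and all genes had a median of -0.07. These member values depend on the scaling, as all 8 were lower on library totals and Fitm2 fell below 0.

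**Figure D2:**
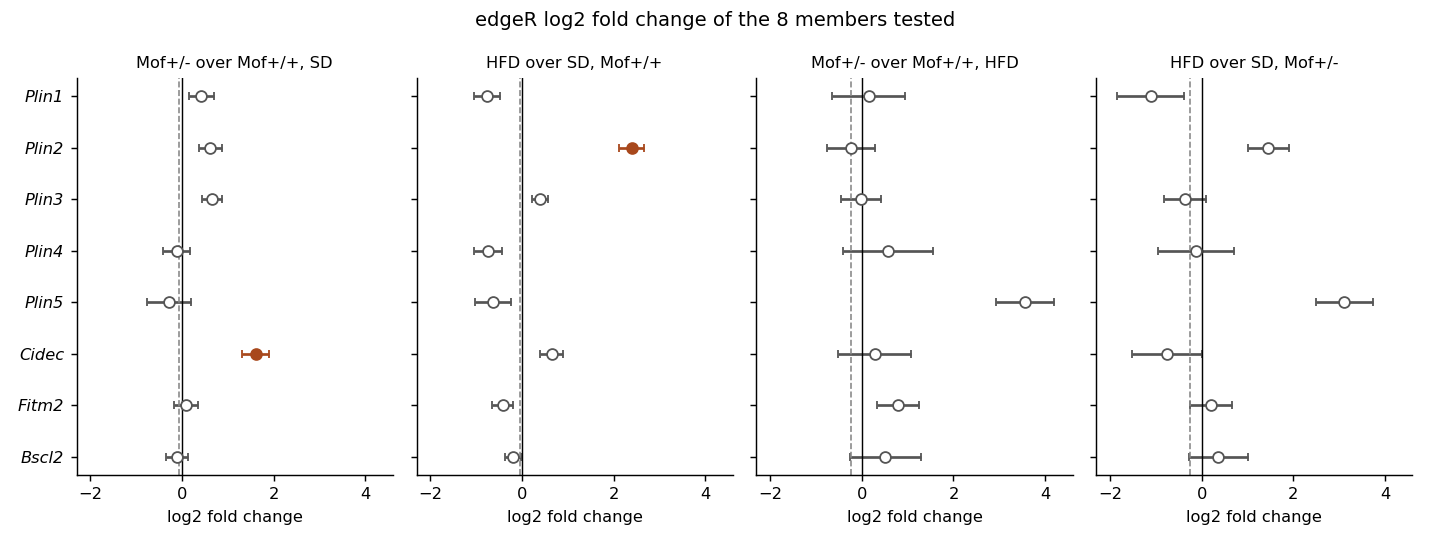
Log2 fold change (horizontal axes) with its SE for the 8 members tested by edgeR in each of the 4 comparisons between 2 groups, filled where the adjusted p was under 0.05, with the median of all genes as a dashed line. Cidec between genotypes on SD and Plin2 between diets in Mof+/+ are the filled points, and the intervals are wider in both comparisons that use HFD Mof+/-.

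Plin2 showed the clearest difference between diets in Mof+/+. It was at 289, 213 and 364 CPM in SD Mof+/+ and at 1143 and 1637 CPM in HFD Mof+/+. Both HFD libraries lay above all SD libraries, with means of 1389.9 (SD 350) and 289 (SD 75.5) CPM, 4.81-fold apart. The log2 fold change was 2.40 (SE 0.28, edgeR adjusted p = 0.00660). Plin2 was the 1 member called of 8 tested by edgeR, beside 9.75% of all 14939 genes, and DESeq2 called 4 (Plin2, Cidec, Plin1 and Plin4) beside 2982 genes in all. The Plin2 call was lost without HFD Mof+/+ 2 (log2 fold change 2.08, adjusted p = 0.157) and with grouping by column headings (2.29, adjusted p = 0.184).

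Macrophage markers moved with Plin2 in this comparison. Their sum over 16 genes was 6578 to 7141 CPM in SD Mof+/+ and 18236 to 21599 CPM in HFD Mof+/+, and edgeR called 12 of them higher and 1 lower (median log2 fold change 2.30). The sum was also 12445 to 25090 CPM in SD Mof+/-, where Plin2 was at 338, 388 and 310.1 CPM, and 6577 and 11955 CPM in HFD Mof+/- 1 and 2, where Plin2 was at 657 and 1269 CPM. Plin2 was therefore at 657 CPM or more in all 4 HFD libraries and at 388 CPM or less in all 6 SD libraries, while the macrophage sums of these sets overlapped. Gene by gene the markers did not always follow their sum. Between diets in Mof+/-, 12 of the 16 were above 0 (median log2 fold change 0.53), although the sum was lower on HFD. Between genotypes, 10 of 16 were above 0 on SD (median 0.39) and 2 of 16 on HFD (median -1.14). Endothelial markers were lower on HFD in Mof+/+, with all 8 below 0, 4 called and sums of 1256 to 2959 CPM on SD and 527 to 608 CPM on HFD (median -1.51), as were all 7 myelin and glial markers tested, 2 of them called (median -2.64). How much of the Plin2 count came from macrophages, and the part of the other markers, was not tested.

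Plin1, Plin4 and Cidec differed less between diets in Mof+/+. Plin1 was at 1101 and 675 CPM in HFD Mof+/+, below the 3 SD libraries, with a log2 fold change of -0.77 (SE 0.29, adjusted p = 0.135). Plin4 was at 1332 and 1056 CPM (log2 fold change -0.74, SE 0.30, adjusted p = 0.161), and Cidec at 2891 and 2455 CPM (log2 fold change 0.65, SE 0.26, adjusted p = 0.152), both outside the SD range. The 12 adipocyte markers summed to 44875 to 58724 CPM on SD and to 38774 and 31394 CPM on HFD, with 10 below 0, 4 called lower and 1 called higher (median log2 fold change -0.73). Per 1000 CPM of these markers Plin4 overlapped between diets, at 34.4 and 33.6 CPM on HFD, Plin1 was at 28.4 and 21.5 CPM, below SD, and Cidec at 74.6 and 78.2 CPM, above it. The part of adipocyte content in these differences was not tested. Of the other members, Plin3 was above the SD range at 91.8 and 108 CPM, and Plin5 at 7.10 and 8.93 CPM, Fitm2 at 132 and 120 CPM and Bscl2 at 284 and 266 CPM were below it. All 8 members were thus without overlap between diets, 3 higher and 5 lower, beside 49.1% of all genes. Their median log2 fold change was -0.31, that of all genes -0.04.

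The make-up of the perilipins differed between the diets. In the 3 SD Mof+/+ libraries, Plin1 made up 39.0%, 43.1% and 44.4% of the perilipin transcripts per kb of exon, and Plin4 made up 47.1%, 47.9% and 37.3%. Plin2 took 10.2%, 6.07% and 14.7% there, and 39.7% and 56.4% in HFD Mof+/+, where Plin1 took 28.9% and 17.6%. In the Mof+/- libraries Plin2 took 11.3%, 12.5% and 15.0% on SD and 52.3% and 30.6% on HFD. The Plin2 share was higher in each of the 4 HFD libraries than in each of the 6 SD libraries, in both genotypes. Plin3 held a small share, from 2.32% to 3.70% over the 10 libraries.

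**Figure D3:**
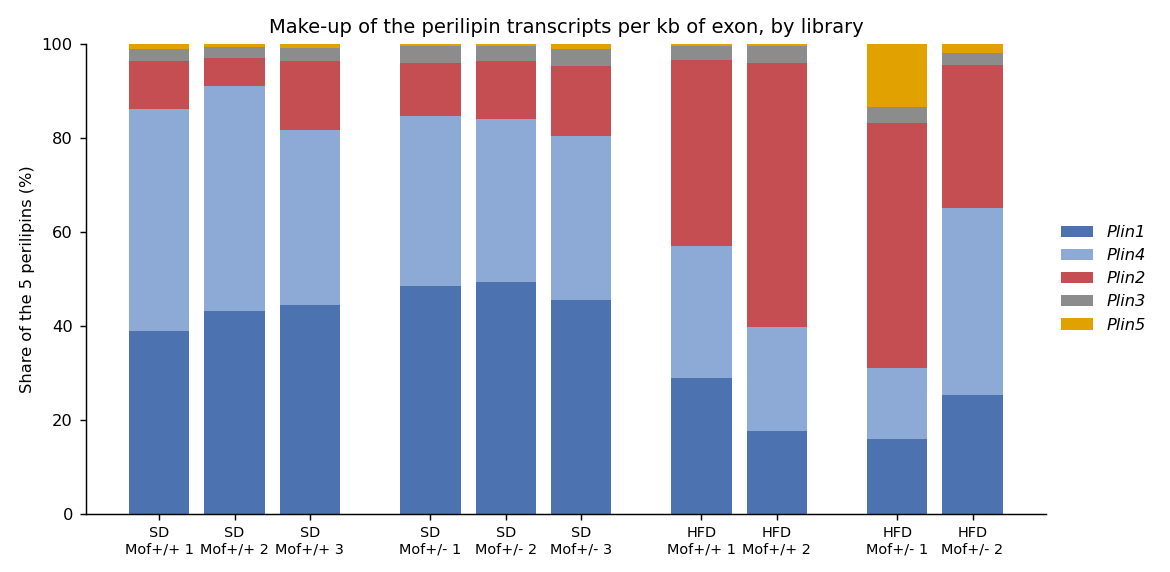
Share of each perilipin in the sum of the 5 perilipins (vertical axis, %, CPM per kb of exon) in each of the 10 libraries. Plin1 and Plin4 fill most of the bar in the 6 SD libraries, Plin2 takes 30.6% to 56.4% in the 4 HFD libraries, and Plin5 reaches 13.3% in HFD Mof+/- 1.

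In Mof+/- the same diet comparison gave no member past the threshold, beside 0% of all 13610 genes called by edgeR. At an unadjusted p under 0.05 there were 1166 genes and 2 members, and DESeq2 called 399 genes and the same 2 members, Plin2 and Plin5. Plin2 had means of 963 (SD 433) CPM on HFD and 345 (SD 39.4) CPM on SD, with a log2 fold change of 1.46 (SE 0.46, edgeR adjusted p = 0.467, DESeq2 adjusted p = 0.0138). This was 1.82 without HFD Mof+/- 1 (adjusted p = 0.0267) and 1.02 without HFD Mof+/- 2 (adjusted p = 0.0586). Plin2 and Plin5 were without overlap between diets here, both higher on HFD, beside 27.6% of all genes. Plin5 had means of 73.1 (SD 37.4) and 8.54 (SD 3.17) CPM and a log2 fold change of 3.11 (SE 0.63, edgeR adjusted p = 0.203). It passed the threshold with no filter, with 10 counts in every library, with all 10 libraries in one fit (adjusted p = 0.0255) and without HFD Mof+/- 2 (adjusted p = 0.000884), where library 1 alone was left and 3903 genes were called. Without HFD Mof+/- 1 the Plin5 log2 fold change was 2.38 (adjusted p = 0.0610). Plin1 had a log2 fold change of -1.12 (SE 0.74), which was -2.61 without HFD Mof+/- 2 (adjusted p = 0.00427) and -0.36 without HFD Mof+/- 1 (adjusted p = 0.720). Cidec had one of -0.76 (SE 0.77), which was -1.72 (adjusted p = 0.0175) and -0.15 (adjusted p = 0.895) in the same fits. The median over the 8 members was 0.04 and over all genes -0.26.

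Between genotypes on HFD, the 2 Mof+/- libraries disagreed on most members. Plin1 was at 265 and 1388 CPM in HFD Mof+/- 1 and 2, Plin4 at 310.2 and 2715, Cidec at 1263 and 4141, Bscl2 at 93.8 and 566, Fitm2 at 98.6 and 260.0, and Plin3 at 46.0 and 115 CPM. For each of these genes HFD Mof+/- 1 lay below and HFD Mof+/- 2 above both HFD Mof+/+ libraries. Plin2 did not follow this order, at 657 and 1269 CPM beside 1143 and 1637 CPM in HFD Mof+/+, nor did Plin5 and Fitm1, whose values come after. Between these 2 replicates the gap was 8.75-fold for Plin4, 6.03-fold for Bscl2, 5.23-fold for Plin1, 3.28-fold for Cidec and 2.30-fold for the summed adipocyte markers. Library 1, with the muscle and mitochondrial counts, was also the shallower.

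The test by edgeR called 0 members and 0% of all 14120 genes between genotypes on HFD, with 1732 genes and 1 member at an unadjusted p under 0.05, while DESeq2 called 209 genes and 1 member. Log2 fold changes of 7 members ran from -0.23 for Plin2 (SE 0.52) to 0.79 for Fitm2 (SE 0.45). Without HFD Mof+/- 2 they ran from -1.60 (Plin4, adjusted p = 0.0381, with Bscl2 at -1.21, adjusted p = 0.0333) to -0.01 (Fitm2), and without HFD Mof+/- 1 from 0.06 (Plin2) to 1.37 (Plin4, adjusted p = 0.220), in fits over all remaining libraries where the lone library was assumed to vary like the other groups. For all 7 genes the sign thus differed between these 2 fits. Here 1 member, Plin5, did not overlap between genotypes in CPM, beside 54.4% of all genes. The median was 0.40 over the 8 members and -0.24 over all genes.

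Plin5, a perilipin that ties droplets to mitochondria in oxidative tissue, was the member higher in both HFD Mof+/- libraries. It was at 99.6 and 46.6 CPM there, with 95% exact (Clopper-Pearson) intervals of 81.4 to 121 and 41.1 to 52.7 CPM that cover counting error only. It was at 7.10 and 8.93 CPM in HFD Mof+/+, and its highest value in the other 8 libraries was 16.5 CPM. The group means were 73.1 (SD 37.4) and 8.02 (SD 1.29) CPM, 9.12-fold apart. The log2 fold change between genotypes on HFD was 3.56 (SE 0.63, edgeR adjusted p = 0.278, DESeq2 adjusted p = 0.00271). Without HFD Mof+/- 1 it was 2.73 (adjusted p = 0.111), and without HFD Mof+/- 2 it was 3.97 (adjusted p = 0.00128).

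Skeletal muscle markers moved with Plin5. All 16 had counts in HFD Mof+/-, with Ckm at 7712 and 298 CPM in libraries 1 and 2, while Ckm was at 0 in both HFD Mof+/+ libraries. The muscle sum was 41.4-fold higher in HFD Mof+/- 1 than in HFD Mof+/- 2, and Plin5 was 2.14-fold higher. Markers of brown adipocytes, which also express Plin5, summed over 8 genes to 1113 and 312 CPM in these libraries and to 25.9 to 60.5 CPM in the other 8. Of these 8 genes, 6 had counts in HFD Mof+/-. The muscle and brown adipocyte sums were both raised in the same libraries, so that these sources cannot be told apart here. The part of muscle or brown fat in the Plin5 counts was not tested.

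Fitm1, the form of this gene pair known from muscle, was counted almost solely in 1 library. It had 163 counts in HFD Mof+/- 1, or 156 CPM (exact 95% interval 133 to 182), and 0 counts in HFD Mof+/- 2. A count of 0 in that library has an exact 95% upper limit of 0.667 CPM, and 3 counts there would be 0.542 CPM. Of the other libraries, 3 had 5, 9 and 10 counts (SD Mof+/+ 3, SD Mof+/+ 2 and HFD Mof+/+ 1) and 5 had 0. Fitm1 did not pass the filter on low counts in any comparison as reported, and its values are a description of 1 library. It entered the fits with no filter and some with a library left out, and was among the members called without HFD Mof+/- 2, where library 1 alone stood for the group.

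**Figure D4:**
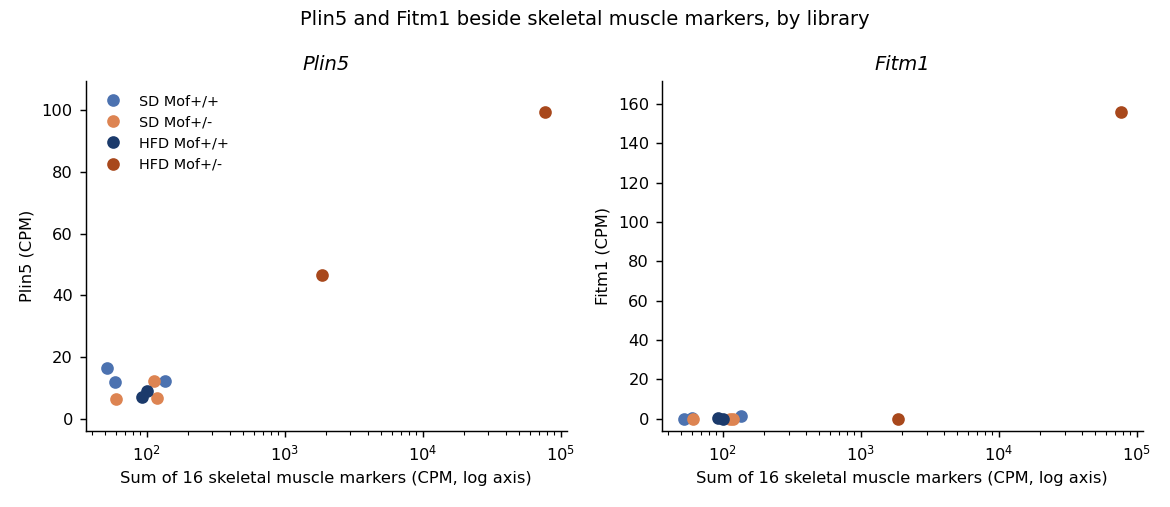
Plin5 (left) and Fitm1 (right) in CPM (vertical axes) against the sum of 16 skeletal muscle markers in CPM (horizontal axes, log scale), with 1 point for each of the 10 libraries, coloured by group. The 2 HFD Mof+/- libraries stand to the right at 1857 and 76808 CPM of muscle markers, Plin5 is raised in both, and Fitm1 in the one at 76808 CPM.

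Whether the genotype difference changed with diet was tested as an interaction over all 10 libraries. No member passed in edgeR, beside 0.0881% of all 15897 genes (14 genes), with 1968 genes and 1 member, Plin5, at an unadjusted p under 0.05 and 483 genes and 1 member by DESeq2. Plin5 had an interaction of 3.74 (SE 0.77, edgeR adjusted p = 0.114, DESeq2 adjusted p = 0.000344). Between diets Plin5 was lower on HFD in Mof+/+ and higher on HFD in Mof+/-. Cidec had an interaction of -1.42 (SE 0.66, edgeR adjusted p = 0.411), which was -2.37 without HFD Mof+/- 2 (adjusted p = 0.0126), -0.81 without HFD Mof+/- 1 (adjusted p = 0.545) and -0.20 by column headings (adjusted p = 0.985), with means of 1858 and 4420.4 CPM on SD and 2673 and 2702 CPM on HFD in Mof+/+ and Mof+/-. These values share the SD Mof+/- libraries, of the other sex pattern, and HFD Mof+/- 1. The medians were 0.09 over the 8 members and -0.41 over all genes.

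A list of 40 other droplet proteins, of which 39 were matched, was split near evenly between genotypes on SD, where 17 of 35 tested were above 0 and 3 were called, beside 5.24% of all genes. Cavin1, a caveolar coat protein needed for fat storage, rose from a mean of 1183 to 2532 CPM (log2 fold change 1.48, adjusted p = 0.0429), and Acsl1, which activates fatty acids, rose from 547 to 1631 CPM (1.91, adjusted p = 0.0290). Pnpla3, a droplet-bound lipase relative, fell from 967 to 176 CPM (-2.10, adjusted p = 0.0222). Of 17 alternatives, Cavin1 passed the threshold in 8, Acsl1 in 11 and Pnpla3 in 13. The list median was -0.04, that of all genes -0.07.

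On HFD against SD in Mof+/+, 14 of 36 tested were above 0 and 6 were called, 2 higher and 4 lower on HFD, beside 9.75% of all genes. Cavin1 rose to 1970 CPM (log2 fold change 0.86) and Hilpda, an inhibitor of the lipase ATGL, rose from 8.81 to 25.2 CPM (1.64). Pnpla3 fell to 188 CPM (-2.24), Lpin1, which makes diacylglycerol, from 319 to 118 CPM (-1.32), Ces1d, a droplet lipase, from 1519 to 478 CPM (-1.55) and Vps13c, a lipid transfer protein, from 82.4 to 20.3 CPM (-1.90), with adjusted p of 0.00998 to 0.0437 over the 6. Of 16 alternatives, Hilpda passed in 8, Cavin1 in 9, and the other 4 genes in 11 each. The list median was -0.26, that of all genes -0.04. In the genotype comparison on HFD (20 of 36 above 0, median 0.27 against -0.24 for all genes), the diet comparison in Mof+/- (10 of 37, median -0.53 against -0.26) and the interaction (17 of 37, median -0.30 against -0.41), 0 genes of the list were called by edgeR, as for nearly all genes.

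Of 16 transcription factors of droplet genes, those called were lower, and Pparg was not among them. On SD, Srebf1, a regulator of lipid synthesis, fell from 594 CPM in Mof+/+ to 158 CPM in Mof+/- (log2 fold change -1.57, adjusted p = 0.0404), Mlxipl, the glucose-responsive factor ChREBP, from 168 to 26.7 CPM (-2.32, adjusted p = 0.0371) and Arntl, a clock factor, from 35.4 to 1.61 CPM (-4.10, adjusted p = 0.00619). These were 3 of 15 tested, beside 5.24% of all genes, with a list median of -0.58 against -0.07 for all genes. Of 17 alternatives, Srebf1 passed in 10, Mlxipl in 12 and Arntl in 14. Between diets in Mof+/+, Srebf1 fell to 158 CPM on HFD (-1.79, adjusted p = 0.0202), Ebf2, a factor of adipocyte identity, from 37.8 to 10.1 CPM (-1.78, adjusted p = 0.0230) and Foxo1, a target of insulin signalling, from 117 to 47.6 CPM (-1.18, adjusted p = 0.0295), 3 of 16 tested beside 9.75% of all genes, with a list median of -0.77 against -0.04. Of 16 alternatives, Foxo1 passed in 10 and Srebf1 and Ebf2 in 11 each. In the other comparisons none was called by edgeR.

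For each member, the genes whose pattern over the 10 libraries was nearest were found by the root mean square (r.m.s.) difference of centred log2 CPM among 9758 genes of at least 10 CPM on average. Plin1 was nearest to Enpp5 (r.m.s. 0.17) and Slc25a23 (0.20), against its own r.m.s. deviation of 0.85. Plin2 was nearest to Pltp (0.32) and Fcer1g (0.32), against 0.98. Plin4 was nearest to Gstt1 (0.17) and Slc5a3 (0.23), against 0.86, and Cidec to Pla2g16 (0.19) and Cmbl (0.21), against 0.66. Plin3 was nearest to Tceanc2 (0.12) and Acp1 (0.15), against 0.38, Fitm2 to Akt2 (0.13) and Ubqln1 (0.17), against 0.40, and Bscl2 to Ltbp3 (0.19) and Tysnd1 (0.20), against 0.63. Plin5 was nearest to Chchd10 (0.45) and Abtb1 (0.50), against 1.21, and Fitm1 to Mss51 (1.26) and Mlf1 (1.53), against 3.18. All 10 libraries enter each value, so that the low or high values of HFD Mof+/- 1 are shared by every pair.

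**Figure D5:**
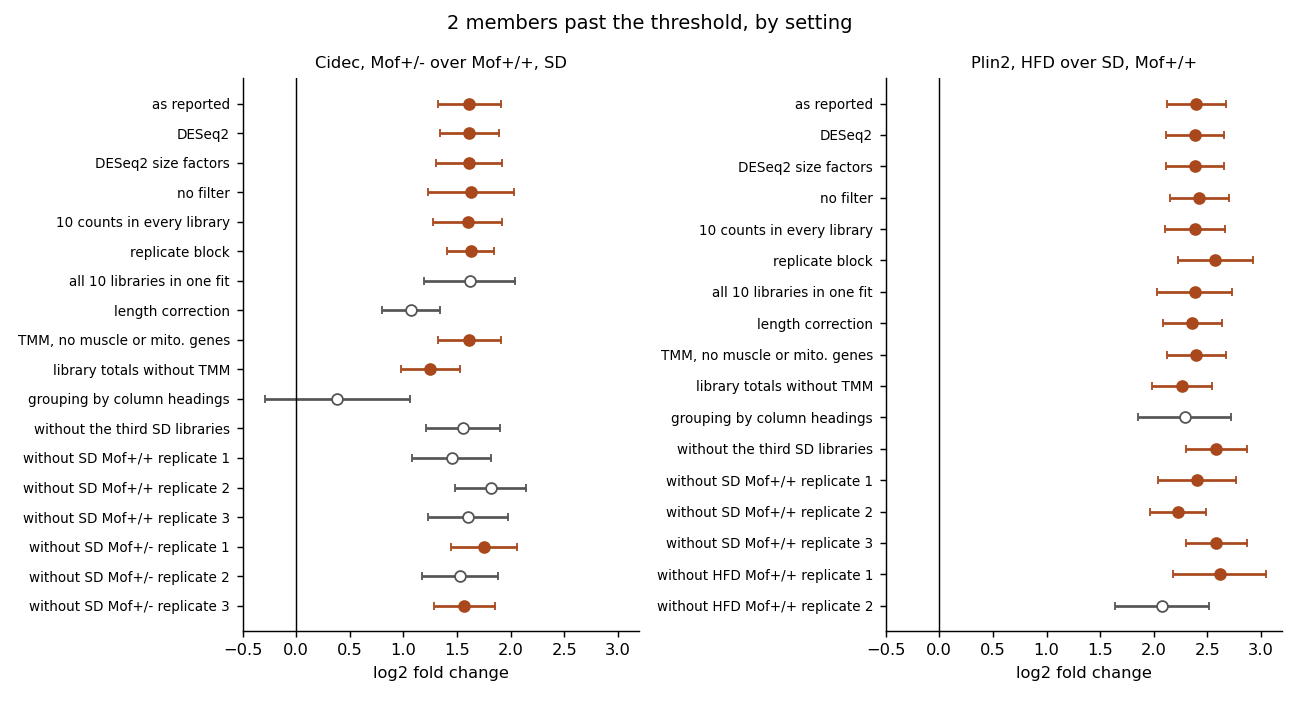
Log2 fold change (horizontal axes) with its SE for Cidec between genotypes on SD (left) and Plin2 between diets in Mof+/+ (right) under the reported setting and each alternative (vertical axes), filled where the adjusted p was under 0.05. Cidec lies between 0.38 and 1.81 and Plin2 between 2.08 and 2.61 over the alternatives, all above 0.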

How the data were processed

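Visceral WAT was profiled by mRNA-seq (TruSeq RNA v2, polyA RNA) in 10 libraries of 4 groups, grouped by sample label. The authors mapped reads to GRCm38 with STAR and deposited, for each library, the counts that featureCounts (Subread 1.5.0-p1) gave per gene, not normalized. The annotation release was not given in the sources used here. Of 47937 identifiers, 47310 were matched to GENCODE M21 (GRCm38) with the version ignored.

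CPM, CPM per kb of exon and exact 95% intervals were computed from the counts. Totals on genes, from 1044355 to 17171947, set the precision. Tests between a pair of groups were made in edgeR 4.0.16 (quasi-likelihood, TMM, filterByExpr; R 4.3.3), fitted to the groups compared, with Benjamini-Hochberg adjustment over all genes tested and a threshold of 0.05. The interaction used all 10 libraries. Labels describe biological replicates. The SD libraries showed no sign of pairing by replicate number, and none was assumed.

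The members and lists were chosen with earlier results of these data known. Named were the 9 members, listed genes past the threshold (at most 6 per list and comparison) and the 2 genes nearest to each member in pattern (prior count 1). Cell markers are given as sums, with a marker of muscle named after its values were seen, and Kat8 as the targeted gene. Alternatives were DESeq2 1.42.0, its size factors, no filter, at least 10 counts in all libraries, a block for the replicate number, all 10 libraries in one fit, a length correction, TMM without muscle and mitochondrial genes, grouping by column headings, and each library or the third SD libraries left out. Library totals without TMM were added after seeing the data. Figures used Python 3.11.15 with matplotlib 3.10.9.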

Additional observations from a re-analysis of the deposited data

How the results depend on the processing

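Of 656 refits of a member's log2 fold change under an alternative, 586 kept their direction and side of the threshold, 28 came to pass it, 10 lost it and 32 turned direction. Of 246 refits of the other named genes, 161 kept both, 83 lost the threshold and 2 turned. The cause of each change was not tested. The depth of HFD Mof+/- 1, 1044355 counts with a floor of 2.87 CPM, limits every result on that group, as does n = 2.

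Members called between genotypes on SD were 1 as reported, 2 by DESeq2, and 0 with all 10 libraries in one fit, the length correction, grouping by column headings or without the third SD libraries, and 0 to 1 with 1 library left out. All genes called there were 727, and 2209 by DESeq2, 1840 with no filter, 1235 with 10 counts in every library, 194 in one fit, 447 with the length correction, 0 by column headings, and 17 to 1026 with 1 library left out. Between diets in Mof+/+, members called were 1, and 4 by DESeq2, 0 by column headings, 2 without the third SD libraries and 0 to 2 with 1 library left out. All genes called were 1457, and 2982 by DESeq2, 142 in one fit, 0 by column headings, 2230 without the third SD libraries and 19 to 2230 with 1 left out.

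Between genotypes on HFD, members called were 0, and 1 by DESeq2 and 0 to 4 with 1 library left out, and all genes called 0, and 209 by DESeq2, 1 in one fit and 0 to 3456 with 1 left out (3456 without HFD Mof+/- 2). Between diets in Mof+/-, members called were 0, and 2 by DESeq2, 2 with no filter, 1 with 10 counts, 1 in one fit and 0 to 7 with 1 left out, and all genes 0, and 399, 429, 26, 189 and 0 to 3903. In the interaction, members called were 0, and 1 by DESeq2, 2 with no filter, 1 with 10 counts and 0 to 5 with 1 left out. All genes called were 14, and 483, 380, 38 and 4 to 3164 in the same order, 24 with the length correction, 8 on library totals, 0 by column headings and 2 without the third SD libraries. The highest counts of members with 1 library left out (4, 7 and 5) are those without HFD Mof+/- 2 and include Fitm1, as do the 2 with no filter.

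With the replicate number as a block, all genes called were 428 between genotypes on SD, 200 between genotypes on HFD and 245 between diets in Mof+/-, and members called were 1 (Plin5) in each of the last 2. In the genotype comparison on HFD the block turned Plin1 to -0.17 and Plin4 to -0.033. The block left the other counts of calls within 1.5 times. Same-numbered SD libraries of the genotypes showed deviations from their group means that correlated at 0.0065, 0.0053 and 0.0077, which gives no sign of pairing by number. With so few libraries in a group this check cannot exclude pairing.

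Members turned direction between genotypes on SD with the length correction (Plin4 0.18, Bscl2 0.23), on library totals (Fitm2 -0.27), by column headings (Fitm2 -0.15, and of the other genes Cavin1 -0.23) and without the third SD libraries (Fitm2 -0.037). With 1 library left out Plin4 ranged from -0.32 to 0.12 and Fitm2 from -0.035 to 0.28. Between diets in Mof+/+, Cidec and Cavin1 both turned to -0.16 by column headings. Between genotypes on HFD, Plin1 was -0.10 on library totals, and with 1 library left out Plin1 ranged from -1.40 to 0.83, Plin2 from -0.74 to 0.060, Plin3 from -0.78 to 0.40, Plin4 from -1.60 to 1.37, Cidec from -0.74 to 0.82, Fitm2 from -0.012 to 1.23 and Bscl2 from -1.21 to 1.23. Between diets in Mof+/-, Plin3 ranged from -1.06 to 0.12, Plin4 from -2.24 to 0.74, Fitm2 from -0.54 to 0.72 and Bscl2 from -1.30 to 1.14. In the interaction Plin1 ranged from -1.84 to 0.39, Plin4 from -1.51 to 1.46, Fitm2 from -0.11 to 1.12 and Bscl2 from -1.11 to 1.32. The directions of Cidec on SD and of Plin2 and Plin5 in the other comparisons that the report turns on did not turn under any alternative run.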
